A study of Mus musculus with 19 samples.

Results

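The 8 mouse genes described here, Cars2, Nrxn2, Cntn2, Spry4, Tshz2, Adamts17, Cracr2a and Gask1b, were chosen by a measured value: each carried a CpG site with lower methylation in the livers of Mat1a knockout (KO) mice given S-adenosylmethionine (SAMe) than in those of KO mice given placebo. Their listed sites were all those falling between 2 kb before and 2 kb after the gene's RefSeq coordinates. That gave 21 positions of the 8525 in any of the 3 tables the authors deposited, in 8 of 21887 protein-coding genes. Of the 21 positions, 10 were listed between the KO groups, 10 in SAMe-treated KO against wild-type (WT) mice and 13 in placebo-treated KO against WT mice, and 10 appeared in more than 1 table.

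Liver DNA came from 19 mice aged 10 months: 5 Mat1a KO mice given SAMe, 6 Mat1a KO mice given placebo and 8 WT mice with no treatment. Treatment ran for 8 weeks according to the series title. Because no WT animal received placebo or SAMe, both comparisons with WT change genotype and treatment together. Reduced-representation bisulfite sequencing was used, which reads methylation at CpG sites near the cutting sites of 2 restriction enzymes, MspI and TaqαI. The tables list group differences in percentage points with p and q values, only for sites past an absolute difference of 20 and a q of 0.05. They give no level, coverage or value for any animal, so depth is unknown and no difference below carries an SD. The kind of test behind the q-values is not given in the sources used here. A position missing from a table was either under a threshold or not covered. Each difference is read as the second group in the table's name minus the first. The tables do not state this, and under the opposite reading every direction below turns round together. Liver was taken whole, so a changed share of cell types and a change within cells cannot be told apart.

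SAMe is the methyl donor that DNA methyltransferases use, and Mat1a encodes the liver enzyme that makes it from methionine and ATP. Methylated CpG sites are frequent within gene bodies in mammals, while CpG-rich promoters are mostly unmethylated. The 8 genes have no common function. Cars2 charges the cysteine tRNA of mitochondria, Spry4 is an inhibitor of receptor tyrosine kinase signalling, Tshz2 is a zinc finger transcription factor and Adamts17 a secreted metalloprotease. Nrxn2 and Cntn2 are cell adhesion proteins best known from neurons, Cracr2a is a calcium-binding regulator of store-operated calcium entry known from human T cells, and Gask1b is a protein of the Golgi apparatus.

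Between the KO groups, all 10 sites of these genes were lower with SAMe, which is how they were picked, and the authors' deposited table has 30.0% of its 230 sites on the lower side. A lower site was found in 0.274% of coding genes. The members' differences ran from −38.5 to −21.3 with a median of −24.9 percentage points in the authors' deposited table, and Cars2 stood apart from all the others. Ranked by their lowest site, these were 8 of the 9 lowest coding genes. Tm2d3, at −23.7, lies between Tshz2 (−24.2) and Adamts17 (−22.8) and is not among them, and Llgl2 comes next after Adamts17 at −22.8, all in the authors' deposited table. At the threshold itself the authors' deposited table ends with sites at −20.01, −20.06 and, in Ndufb9, −20.15.

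**Figure D1:**
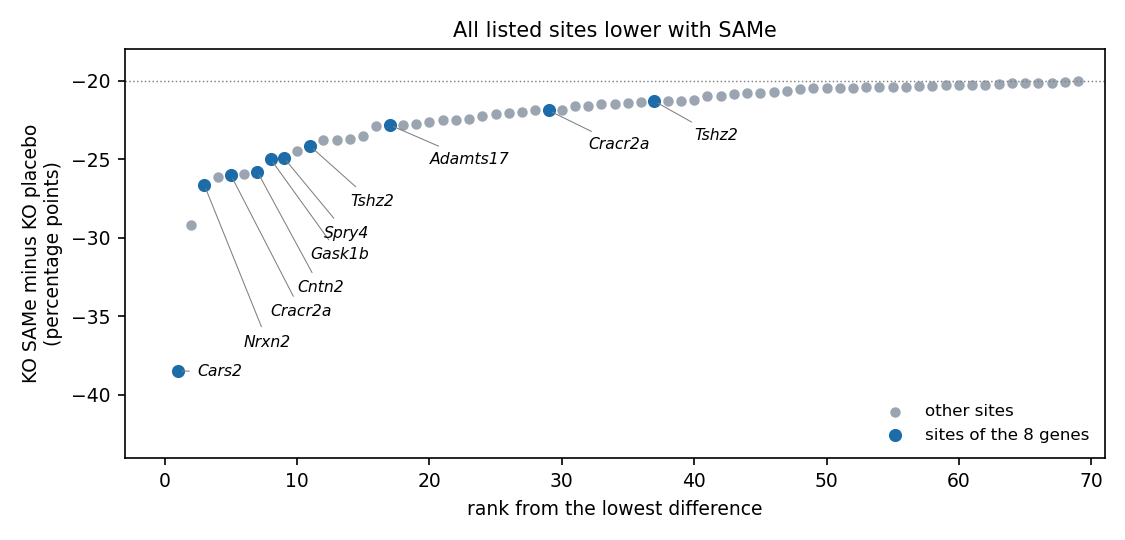
Methylation difference, KO SAMe minus KO placebo in percentage points (y axis), of the 69 sites that were lower with SAMe, ranked from the lowest (x axis). Blue points are the 10 sites of the 8 genes, grey points the other 59, and the dotted line is the listing threshold. Cars2 lies at −38.5, and the other member sites lie between −26.6 and −21.3.

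Set against WT, the 10 sites fell into 4 kinds. Cars2 and Adamts17 were listed in both WT tables, with lower methylation in both KO groups. Nrxn2, Cntn2 and Spry4 were listed for the SAMe-treated KO group alone. The Tshz2 pair was listed for the placebo-treated KO group alone, and the Cracr2a pair and the Gask1b site in neither WT table. Where 2 tables held a site, the difference not listed follows by adding or subtracting the others. The comparisons share animals, so their values are given side by side with no test of agreement.

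**Figure D2:**
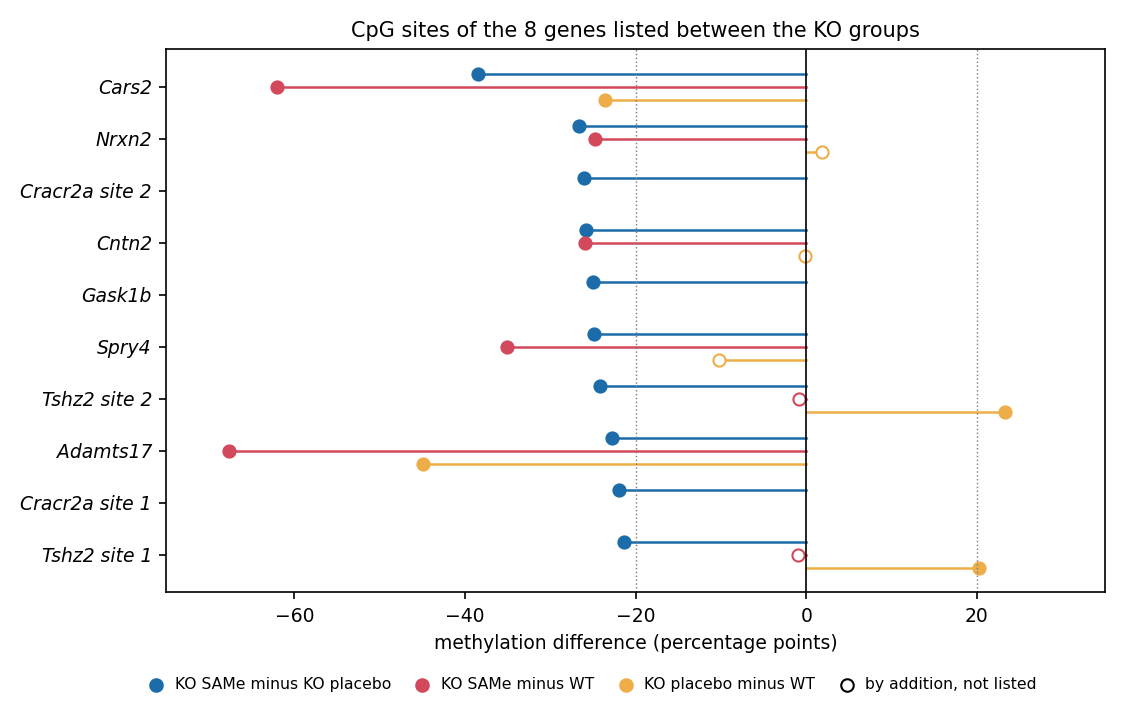
Methylation differences (x axis, percentage points) at the 10 sites of the 8 genes listed between the KO groups, sorted by KO SAMe minus KO placebo (blue), with KO SAMe minus WT (red) and KO placebo minus WT (yellow). Filled points are listed in the authors' deposited tables and open points follow by addition. Site 1 and site 2 of a gene are in coordinate order, and dotted lines mark the threshold of 20. Tshz2 is the gene with yellow points right of 20, at 20.3 and 23.3.

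Cars2 had a single listed position, chromosome 8 position 11529727 (mm10, plus strand), inside the gene. SAMe-treated KO liver stood 62.1 percentage points below WT there, listed as −62.1 with q given as 0 in the authors' deposited table. Placebo-treated KO liver stood at −23.6 from WT (q = 5.72e-11), and SAMe minus placebo was −38.5 (q = 2.83e-06) in the authors' deposited tables. The SAMe difference was thus larger than the difference between the placebo group and WT at the same cytosine. Because a methylation level cannot leave the range of 0 to 100%, these 3 differences bound the groups' levels: between 0 and 37.9% in SAMe-treated KO, 38.5 and 76.4% in placebo-treated KO, and 62.1 and 100% in WT liver. The site was the 29th lowest in KO SAMe minus WT and the 4348th lowest in KO placebo minus WT. It was isolated, since the nearest other listed position in any table lay 108 kb away.

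Adamts17 carried 4 listed positions, and the lowest of them, chromosome 7 position 67127405 (plus strand), was also the one listed between the KO groups. It stood at −67.7 from WT in SAMe-treated KO and at −44.9 in placebo-treated KO, with both q-values given as 0, and SAMe minus placebo was −22.8 (q = 1.41e-06) in the authors' deposited tables. The bounds on its level were 0 to 32.3% in SAMe-treated KO, 22.8 to 55.1% in placebo-treated KO and 67.7 to 100% in WT liver. Its rank was the 15th lowest in KO SAMe minus WT and the 322nd lowest in KO placebo minus WT. A pair of other Adamts17 positions 28 bp apart (67039938 and 67039966), 87.4 kb away, was listed at −25.5 and −36.4 in SAMe-treated KO and at −35.3 and −36.1 in placebo-treated KO in the authors' deposited tables. By addition SAMe minus placebo was 9.82 and −0.22 there. The remaining position, 66986410, was listed only for placebo-treated KO (−27.8, q = 5.58e-15, in the authors' deposited table), so it has no value between the KO groups.

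Nrxn2, a presynaptic receptor that binds neuroligins, and Cntn2, a contactin anchored to axon membranes, followed a second course. The Nrxn2 site (chromosome 19, position 6451756, plus strand) stood at −24.8 from WT in SAMe-treated KO (q = 2.07e-05) and at −26.6 from placebo-treated KO (q = 1.88e-04) in the authors' deposited tables. By addition the placebo group differed from WT by 1.84. The Cntn2 site (chromosome 1, position 132521393, plus strand) stood at −25.9 from WT in SAMe-treated KO (q = 1.67e-04) and at −25.8 from placebo-treated KO (q = 0.0032) in the authors' deposited tables, with a placebo difference from WT of −0.11 by addition. At both cytosines the placebo group and WT lay within 2 percentage points of each other, and the SAMe group was below both. A separate position of each gene was listed for the placebo group alone. In Nrxn2 it was 6469883, 18.1 kb away (−24.4, q = 1.01e-10), and in Cntn2 132510878, 10.5 kb away (−22.7, q = 3.97e-08), in the authors' deposited table.

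Spry4, which restrains growth factor signalling to the MAP kinases, was between these courses. Its site (chromosome 18, position 38591433, plus strand) stood at −35.1 from WT in SAMe-treated KO (q = 1.22e-10) and at −24.9 from placebo-treated KO (q = 6.75e-04) in the authors' deposited tables. Addition gave −10.2 for placebo-treated KO against WT, under the threshold of 20. The other Spry4 position, 38597409, lay 5.98 kb away and was listed for placebo-treated KO alone (−21.7, q = 3.5e-11, in the authors' deposited table).

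Tshz2 was the member with sites listed as higher in the placebo group than in WT. Positions 170003108 and 170003135 of chromosome 2, 27 bp apart on the minus strand, stood at 20.3 (q = 4.58e-04) and 23.3 (q = 4.46e-05) from WT in placebo-treated KO in the authors' deposited table. SAMe minus placebo was −21.3 (q = 0.00474) and −24.2 (q = 9.39e-04) in the authors' deposited table. By addition SAMe-treated KO differed from WT by −0.995 and −0.844, so the SAMe group lay within 1 percentage point of WT at both. Cytosines so close together can be read from the same DNA fragment and are not independent measurements. A higher site in placebo-treated KO was rare, with 0.0777% of coding genes holding one and 99.4% of the sites in that table lower.

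The other Tshz2 positions were 214 kb or more from that pair and all were lower in KO. Position 169700647 was listed in both WT tables, at −22.3 in SAMe-treated KO and −21.6 in placebo-treated KO in the authors' deposited tables, which leaves −0.70 between the KO groups. Position 169754635 was listed for SAMe-treated KO alone (−22.3, q = 0.002), and 169656758 and 169789323 for placebo-treated KO alone (−24.1 and −26.0), in the authors' deposited tables. Tshz2 therefore held sites on both sides of WT in the placebo group, the higher ones only at the pair.

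Cracr2a and Gask1b differed between the KO groups without a listed difference from WT at the same cytosines. In Cracr2a, positions 127582117 and 127582131 of chromosome 6, 14 bp apart on the minus strand, stood at −21.9 (q = 0.025) and −26.0 (q = 0.00573) in SAMe-treated against placebo-treated KO in the authors' deposited table. In Gask1b, position 79923975 of chromosome 3 (minus strand) stood at −25.0 (q = 2.18e-08) in the authors' deposited table. If these 3 cytosines were covered in WT and missed the listing only for lying under 20, the placebo group was above WT and the SAMe group below it. For Gask1b the SAMe group would then be between −20 and −4.99 from WT, and the placebo group between 4.99 and 20. Coverage and q-values of unlisted sites were not analysed here, so that condition was not tested. Cracr2a also had a position 75.5 kb away, 127657681, listed for SAMe-treated KO alone (−30.4 from WT, q given as 0, in the authors' deposited table). Gask1b had no other listed position, and the nearest in any table was 197 kb away.

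**Figure D3:**
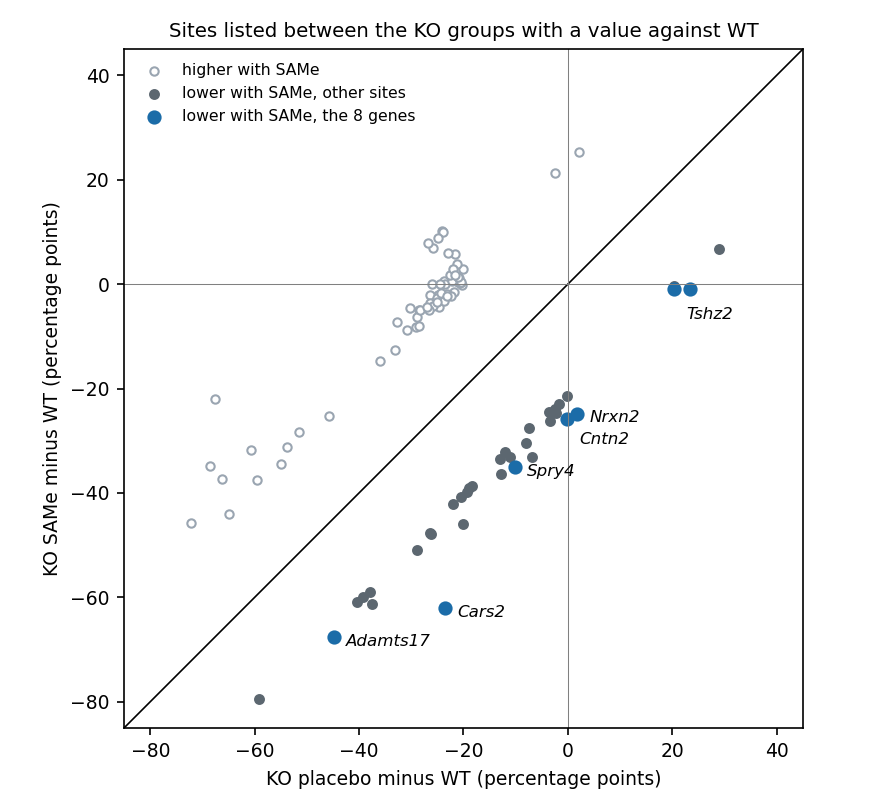
KO placebo minus WT (x axis) against KO SAMe minus WT (y axis), in percentage points, at the 102 sites listed between the KO groups that also have a value against WT. Blue points are the 7 such sites of the 8 genes, dark points the other 29 sites lower with SAMe, open points the sites higher with SAMe, and the black line marks equal differences. Listing between the KO groups empties the band of 20 on either side of that line. Cars2 lies farther below the line than any other point.

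Among the 7 member sites with a value against WT, the SAMe group was the closer to WT at 2, the Tshz2 pair, and the placebo group at 5. Among the other 29 lower sites with such a value these counts were 2 and 27. At a site lower with SAMe, the SAMe group can be the closer one only where the placebo group is above WT. The Tshz2 pair and the other 2 such sites, of which 1 lay in Hs3st2, were above WT in the placebo group for that reason. The counts are therefore tied to how the sites were picked, and how far they follow from it was not tested. Among sites listed in KO placebo minus WT 99.4% were lower, a share that leaves out sites under the threshold there. Sites listed in neither WT table made up 3 of the 10 member sites and 30 of the other 59 lower sites (50.8%). The members were picked with these values known, so the shares are a description and their difference was not tested.

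All 21 positions lay inside their genes, and none lay inside or within 2 kb of another RefSeq gene. The annotation used holds no exons, so introns and exons were not told apart. The start site of the member gene itself, known for 6 of the 8 genes from the RefSeq promoter table, was far from every one of its positions. The 8 sites listed between the KO groups in these 6 genes were at least 20.8 kb downstream of it, and the Tshz2 pair was 371 kb downstream. Median distance to the nearest RefSeq start of any gene was 37.2 kb over 9 of the member sites, against 18.6 kb over 57 of the other lower sites and 26.4 kb over 157 sites higher with SAMe. Of these, 0 member sites, 3 other lower sites and 18 higher sites lay within 2 kb of a start. The sets differ, since every member site lay in a coding gene. Only 32 of the other 59 lower sites and 93 of the 161 higher sites lay in or within 2 kb of one. Over such sites alone the medians were 37.2, 10.5 and 24.5 kb in the same order, with 0, 1 and 15 sites within 2 kb of a start. The promoter table lacks some genes, which lengthens such distances. Member genes had a median length of 87.5 kb, against 28.6 kb for 26 other coding genes with a lower site between the KO groups that lay in no further coding gene, 68.3 kb for 82 genes with such a site in the higher direction and 17.2 kb over all coding genes.

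**Figure D4:**
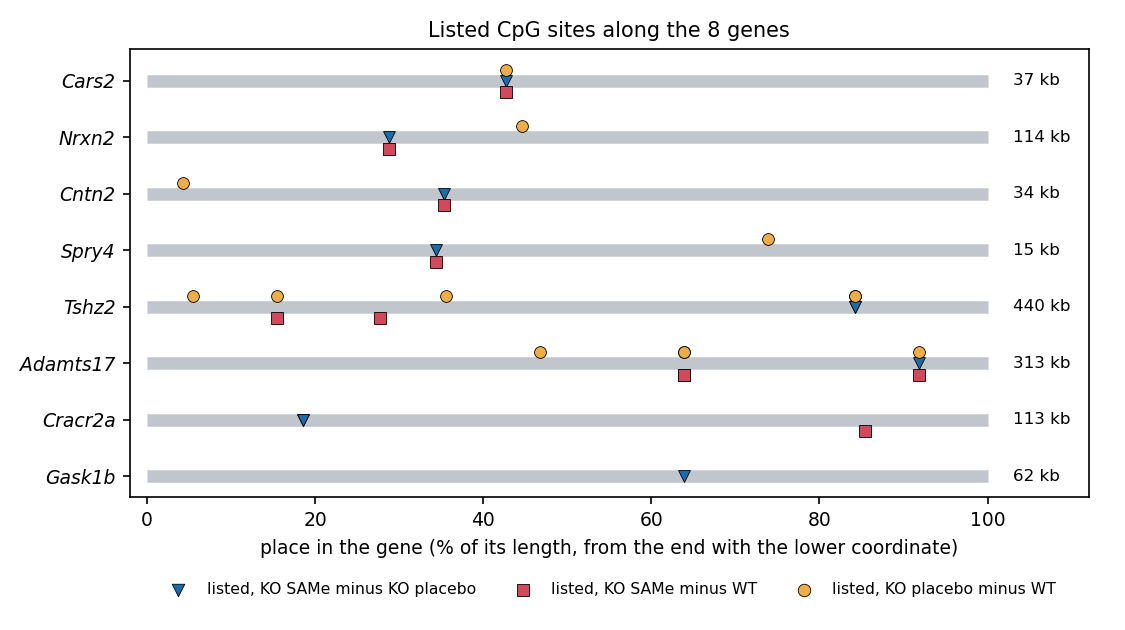
Place of the 21 listed CpG positions along the 8 genes (x axis, percent of the gene's length counted from the end with the lower coordinate), with gene lengths at the right. Triangles are listed for KO SAMe minus KO placebo, squares for KO SAMe minus WT and circles for KO placebo minus WT; marks of neighbouring cytosines overlap. In Nrxn2, Cntn2 and Spry4 the circle stands apart from the triangle and square.

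The sequence just upstream of a start shows whether the 2 enzymes could have cut there. The 250 bases before the start of Cars2 (minus strand, chr8:11550772-11551021), Adamts17 (plus strand, chr7:66839485-66839734) and Tshz2 (plus strand, chr2:169632259-169632508) are printed 5′ to 3′ from RefSeq (GRCm38.p6, whose primary coordinates are those of mm10). They are the genes with the lowest site, the largest difference from WT and the higher placebo pair. Capitals mark the MspI sequence CCGG and the TaqαI sequence TCGA, which read the same on both strands and cannot overlap each other.
Cars2: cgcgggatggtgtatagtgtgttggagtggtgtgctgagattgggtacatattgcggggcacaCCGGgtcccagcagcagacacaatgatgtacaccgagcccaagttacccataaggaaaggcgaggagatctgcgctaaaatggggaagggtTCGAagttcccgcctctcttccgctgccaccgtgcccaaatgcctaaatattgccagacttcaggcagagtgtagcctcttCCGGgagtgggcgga
Adamts17: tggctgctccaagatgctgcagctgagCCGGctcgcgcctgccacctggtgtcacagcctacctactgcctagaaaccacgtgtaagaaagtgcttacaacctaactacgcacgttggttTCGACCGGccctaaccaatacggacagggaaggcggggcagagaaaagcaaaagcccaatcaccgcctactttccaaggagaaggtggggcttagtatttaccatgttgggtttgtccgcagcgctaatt
Tshz2: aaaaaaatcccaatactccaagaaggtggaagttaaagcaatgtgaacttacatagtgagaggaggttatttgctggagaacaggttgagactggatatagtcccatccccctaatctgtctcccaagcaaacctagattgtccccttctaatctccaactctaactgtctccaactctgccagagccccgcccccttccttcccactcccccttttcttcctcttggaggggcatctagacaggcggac

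These stretches hold 13 CpG in Cars2, 13 in Adamts17 and 2 in Tshz2. With 50 bases after the start included, CCGG occurred in 4 of the 6 member promoters and TCGA in 2, against 52.8% and 22.0% of all 32851 RefSeq promoter windows of that length. Neither sequence occurred in the windows of Tshz2 and Gask1b. None of the 6 windows held a listed position, and only 74 of all windows did (0.225%). A window with no listed position may have differed by less than the threshold or not been covered, which the tables do not tell apart.

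Counted by gene, a lower site against WT was listed for 7 of the 8 genes in SAMe-treated KO and 6 of the 8 in placebo-treated KO, where 10.7% and 12.5% of all coding genes had one. These backgrounds are not matched: a gene with any listed site is covered by construction, and longer genes offer more sites. In SAMe-treated KO, 5 of the 8 genes were listed at the same cytosine that was picked for being lower with SAMe. The count of 7 therefore partly repeats that choice. Genes already listed between the KO groups are a nearer measure, although those with lower sites were shorter than the members. A site of either direction was listed for 7 of the 8 members in KO SAMe minus WT and 6 in KO placebo minus WT. Of the 26 other coding genes with a lower site between the KO groups that no further coding gene shared, 61.5% and 65.4% had one. Of 82 such genes with a site in the higher direction instead, with a median length of 68.3 kb, 35.4% and 61.0% had one. At a position other than the one listed between the KO groups, 3 of the 8 member genes had a lower site in SAMe-treated KO and 5 in placebo-treated KO, against 13 of those 26 genes in SAMe-treated KO and 12 in placebo-treated KO. Among the 82 genes with a site in the higher direction these counts were 25 and 32. In KO SAMe minus WT all 10 member positions were lower, as were 99.0% of all positions in that table.

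Relatives of the 8 genes, grouped into 8 families with 87 genes, were examined for the same difference. No gene of these families other than the 8 had a listed site between the KO groups in either direction. Among all 21887 coding genes, 0.274% had a lower one and 84 genes a higher one. At shares so low, finding none among 79 relatives does not set these families apart. With the 8 left out, 9 of 79 relatives had a lower site in SAMe-treated KO against WT (11.4%) and 10 of 79 in placebo-treated KO (12.7%), both close to the background of all coding genes, and none had a higher one. The relatives had a median length of 45.2 kb.

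Adamts genes, which encode secreted proteases and related proteins of the extracellular matrix, gave 6 of these relatives in SAMe-treated KO and 4 in placebo-treated KO, out of 23 (26.1% and 17.4%, against 10.7% and 12.5% of all coding genes). These 23 genes had a median length of 76.3 kb, against 17.2 kb over all coding genes, and the shares were not corrected for length. Adamts19 stood at −47.1 in SAMe-treated KO and −46.8 in placebo-treated KO, and Adamtsl1 at −37.7 and −34.3 in the same order, each at the same position in both of the authors' deposited tables. In the store-operated calcium entry family, Stimate, a partner of the calcium sensor STIM1 in human cells, stood at −41.4 in SAMe-treated KO and −36.2 in placebo-treated KO, and Stim1 itself at −26.2 in placebo-treated KO alone, in the authors' deposited tables. Among the mitochondrial tRNA synthetases, Wars2 (−29.0) and Fars2 (−24.3) were listed for placebo-treated KO alone, and no relative of Cars2 for SAMe-treated KO, in the authors' deposited tables. Spred2, a relative of Spry4 that also dampens MAP kinase signalling, stood at −25.1 in SAMe-treated KO and −21.3 in placebo-treated KO at separate positions in the authors' deposited tables. Fjx1, listed with Gask1b's relatives, stood at −21.7 in SAMe-treated KO and −22.1 in placebo-treated KO in the authors' deposited tables. The relatives of Nrxn2 (5 genes), Cntn2 (12 genes) and Tshz2 (2 genes) had no listed site in any table. Median gene length was 911 kb in the first of these groups and 525 kb in the second. With so few genes, and lower sites against WT in 10.7% and 12.5% of all coding genes, this does not set these groups apart. Whether their CpG sites were covered is unknown.

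Coding genes outside the 8 with the lowest sites between the KO groups were Tm2d3, Llgl2, Dusp3, Cit and Slc36a2, from −23.7 to −22.4 in the authors' deposited table. Tm2d3 resembled Adamts17, at −61.3 from WT in SAMe-treated KO and −37.5 in placebo-treated KO in the authors' deposited tables. Llgl2, a cell polarity gene, and Slc36a2, an amino acid transporter gene, were listed against WT for SAMe-treated KO alone, at −26.2 and −30.4 in the authors' deposited table, as were Nrxn2, Cntn2 and Spry4. Dusp3 and Cit, like Gask1b, were listed in neither WT table at that site. Member sites had another listed position within 1 kb at 4 of 10, the pairs of Tshz2 and Cracr2a, and the other lower sites at 18 of 59 (30.5%).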

How the data were processed

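CASAVA 1.8.2, Trim Galore, Bismark, methylKit and the mm10 build appear as tools and build per the submitters' processing notes, without order or settings. The authors deposited 3 tables of their own comparisons, 1 cytosine per line, with a p-value and q-value and a signed methylation difference, handled here as a score in percentage points. No column held a sample's values, so no test was run here and the precision of each difference is unknown; all q-values are the authors'. At the 26 positions in all 3 tables the differences added up within 1e-07 percentage points, which allowed missing ones to be computed. Positions were assigned to RefSeq genes (GRCm38.p6) with pandas 2.3.3 in Python 3.11.15, allowing 2 kb on either side, and joined into runs within 1 kb. Assignment was tested on simulated data. Promoter sequences came from the RefSeq table, with 6 of 8 genes matched. All 87 family entries matched the gene table, 2 of them through a synonym. The members and gene lists were chosen with earlier results of these data known. The text names each member with its sites, the 2 relatives per family with the largest difference, and the 5 lowest other genes; Hs3st2 was named after its values were seen. Also tried were gene bodies alone, 10 kb flanks, q below 0.01, a difference of at least 25 and runs within 100 bp or 5 kb.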

Additional observations from a re-analysis of the deposited data

How the results depend on the processing

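Of 27 recomputed counts, 22 stayed within 1.5 times the reported one. These were all counts under other choices of flank, run distance and q, and 1 under a threshold of 25 percentage points. That 1 was the count of member sites in KO SAMe minus WT, with 7 left of 10. The threshold of 25 percentage points moved the other 5, which follows from keeping fewer sites. Under it, 4 member sites and 4 genes of the families remained between the KO groups, 5 member sites and 8 family genes in KO placebo minus WT, and 10 family genes in KO SAMe minus WT. The 4 sites are those of Cars2, Nrxn2, Cracr2a and Cntn2. With q below 0.01, 9 of the 10 sites between the KO groups were left. No paired analysis was possible because the tables hold no value for any animal, and for the same reason no animal could be left out. Unknown coverage limits every statement on unlisted positions.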
